A study of Macaca mulatta with 24 samples.

Results

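The genes described here are 10 transcriptional regulators of fat cell formation and fat cell metabolism, namely PPARG, RXRA, CEBPA, CEBPB, CEBPD, PPARA, PPARGC1A, PPARGC1B, EBF1 and KLF15. They were found by gene symbol among the 32386 Ensembl genes of the count table, and each of the 10 had 1 identifier. All 10 passed the filter on low counts, and the lowest count of any of them in any library was 68. Omental white adipose tissue (WAT), a visceral fat depot, was biopsied from 24 female rhesus macaques, with 6 animals in each of 4 groups and 1 RNA-seq library per animal. Control animals (C) carried cholesterol implants and ate monkey chow, T animals carried testosterone implants and ate chow, WSD animals carried cholesterol implants and ate a high-fat Western-style diet, and T+WSD animals had testosterone implants and that diet. Treatment ran for 3 years and the biopsies came from the third year. The labels give every animal an age of 4 years, and the study's methods describe older animals at biopsy. The study chose the 6 animals of each group as typical of its larger treatment groups, and names higher fat mass and hyperinsulinemia as the findings they reflect. The spread within a group may therefore be smaller, and differences between groups larger, than among unselected animals. The tissue was taken whole, and its cell types were not separated.

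In the developing fat cell, CEBPB and CEBPD are switched on early and induce PPARG and CEBPA, which then keep each other on and activate the genes of lipid storage. PPARG binds DNA as a pair with RXRA and is required for adipocytes to form and to persist. PPARA and the coactivators PPARGC1A and PPARGC1B are best known for driving fatty acid oxidation and mitochondrial gene expression, whereas EBF1 and KLF15 act upstream of or beside PPARG and CEBPA.

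The libraries held between 6899185 and 28270776 counts, and the smallest one belonged to T+WSD. In 8 libraries, 2 in each group, the gene ENSMMUG00000038258 alone took from 9.92% to 54.7% of the counts, against at most 2.51% in the other 16. These 8 were C 1, C 2, T 13, T 14, WSD 19, WSD 20, T+WSD 7 and T+WSD 8. All 8 adipocyte markers examined were detected, with a summed level from 1502 CPM (counts scaled to 1000000 per library) in C 1 to 15685 CPM in a T animal. The library of C 1 also held the highest sum of 9 mesothelial markers, genes of the cells that line the omentum, at 38893 CPM. Levels below are CPM after TMM normalization, are given as mean ± SD with n = 6 animals, and are compared only between animals for the same gene.

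**Figure D1:**
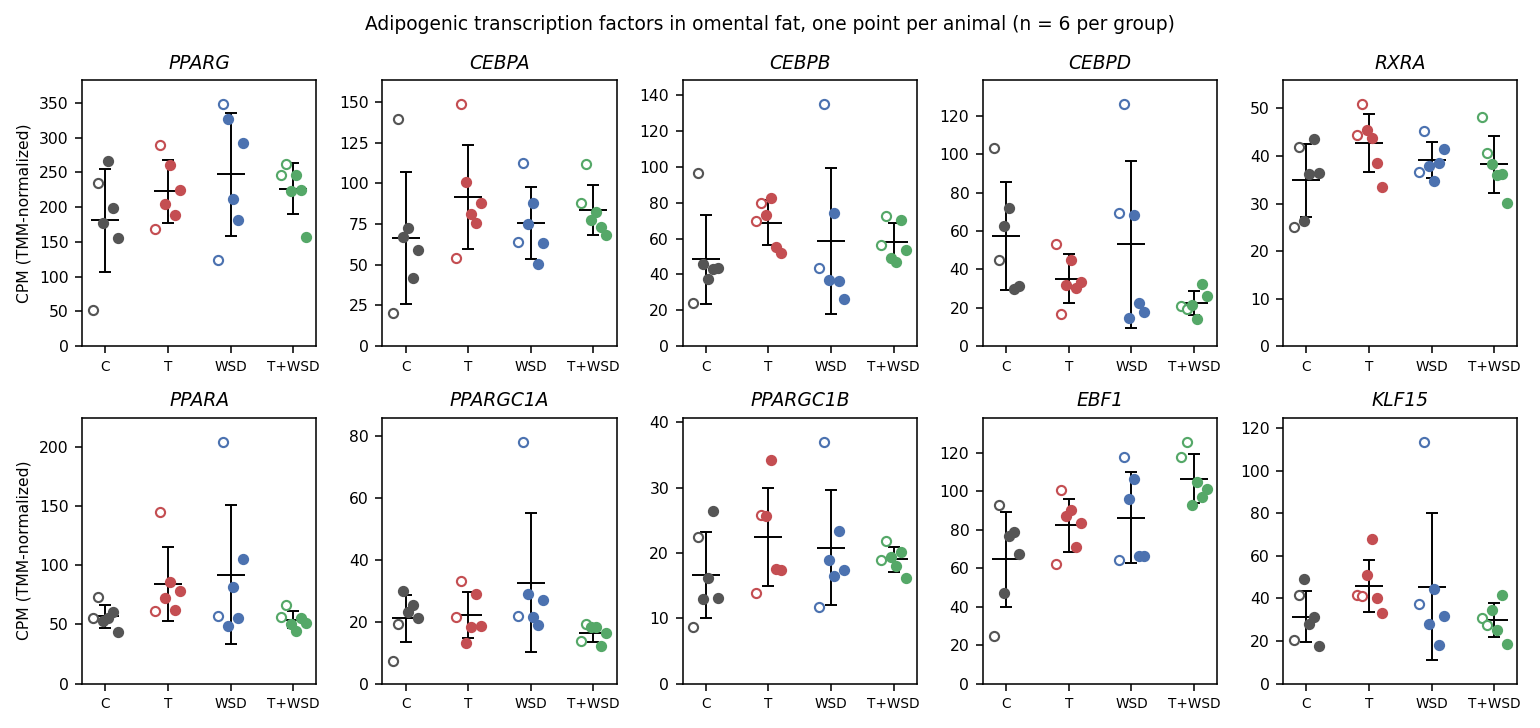
Level of each of the 10 regulators (CPM, linear axis from 0) in each animal of the groups C, T, WSD and T+WSD, with the mean and SD of 6 animals as bars. Open points are the 8 libraries with a high share of ENSMMUG00000038258. EBF1 is the gene whose T+WSD animals all lie above the controls, and WSD 20 is the highest point in the WSD group of every panel.

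The combined treatment was compared with the controls to ask which regulators differ when testosterone and the diet are given together. CEBPD fell and EBF1 rose in T+WSD, and the other 8 regulators did not pass the test. A gene was called when its Benjamini-Hochberg adjusted p in edgeR's quasi-likelihood test was under 0.05 and its fold change was over 1.5, and by this rule 10% of the 15207 genes tested were called in T+WSD against C. The count of 2 in 10 regulators stands against that share, with 4.72% of all genes called higher and 5.29% called lower. All contrasts came from 1 fit to the 4 groups, and those with a group in common share its animals.

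CEBPD encodes C/EBP delta, which hormones and inflammatory signals induce early in adipogenesis. In the controls its level had a lowest value of 30.02, a median of 53.6 and a highest value of 103 CPM, and in T+WSD the corresponding values were 14.4, 21.2 and 32.5 CPM. Of the 6 T+WSD animals, 5 lay below every control and T+WSD 11 overlapped the lowest controls. The mean was 57.2 ± 28.0 CPM in C and 22.5 ± 6.27 CPM in T+WSD, and the log2 fold change was -1.34 (SE 0.44, edgeR adjusted p = 0.0389). The highest control was C 1, and without C 1 the log2 fold change was -1.07 and the call was lost (edgeR adjusted p = 0.124). The call was also lost when C 3, C 4, T+WSD 7, T+WSD 8, T+WSD 9, T+WSD 10 or T+WSD 12 was left out, with log2 fold changes from -1.40 to -1.24 and edgeR adjusted p from 0.0533 to 0.0840. In bulk tissue, fewer cells of a type that makes a transcript and less transcript per cell cannot be told apart.

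CEBPD did not pass the test under either treatment alone. The T animals had a lowest value of 16.9, a median of 32.7 and a highest of 53.4 CPM, and the log2 fold change against C was -0.70 (SE 0.43, edgeR adjusted p = 0.650), or -0.45 without C 1. The WSD animals were spread more widely. WSD 19, WSD 20 and WSD 22 were at 69.1, 126 and 68.5 CPM, whereas WSD 21, WSD 23 and WSD 24 were at 14.7, 22.7 and 17.5 CPM. WSD as a group therefore overlapped both C and T+WSD, with a log2 fold change of -0.12 against C (SE 0.43, edgeR adjusted p = 0.912). T+WSD against WSD gave -1.22 (SE 0.44, edgeR adjusted p = 0.124), and it depended on single WSD animals. Without WSD 21 it was -1.42 and called (edgeR adjusted p = 0.0494), without WSD 20, the highest animal, it was -0.76 (edgeR adjusted p = 0.347), and without the 8 libraries it was -0.37 (edgeR adjusted p = 0.767).

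EBF1 encodes early B cell factor, a DNA-binding protein of preadipocytes and adipocytes that activates PPARG and CEBPA and is also known from B cells and vascular mural cells. The controls had a lowest value of 24.97, a median of 72.1 and a highest of 92.7 CPM, and the T+WSD animals had 93.0, 103 and 126 CPM. All 6 T+WSD animals were above every control, although the highest control, C 2, and the lowest T+WSD animal, T+WSD 9, lay close together. Of all tested genes, 3.49% had every T+WSD animal above every control. The mean was 64.6 ± 24.6 CPM in C and 107 ± 12.7 CPM in T+WSD, and the log2 fold change was 0.72 (SE 0.22, edgeR adjusted p = 0.0299). Without C 1, the lowest control, it was 0.58 (edgeR adjusted p = 0.0481), below the required fold change. The call was also lost without C 3 (0.65, edgeR adjusted p = 0.0739), without T+WSD 7 (0.69, edgeR adjusted p = 0.0568) and without T+WSD 8 (0.69, edgeR adjusted p = 0.0624).

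The single treatments placed EBF1 between these groups. Its level was 82.4 ± 13.7 CPM in T (log2 fold change against C of 0.35, SE 0.22, edgeR adjusted p = 0.657) and 86.4 ± 23.6 CPM in WSD (0.42, SE 0.22, edgeR adjusted p = 0.312). Both single-treatment groups overlapped C and T+WSD, and without C 1 these values were 0.19 and 0.26. The interaction term, the effect of testosterone under the diet minus its effect under chow, was -0.051 on the log2 scale for EBF1 with a 95% interval from -0.70 to 0.60.

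Markers of other cell types differed between the same groups of animals. The counts of called markers stand beside 4.72% of all tested genes called higher and 5.29% called lower. Mesothelial markers were called lower in T+WSD against C for 8 of 9 tested, with sums from 2722 to 38893 CPM in C and from 235 to 3070 CPM in T+WSD, and ITLN1 supplied most of these counts. Endothelial markers were called higher for 4 of 8, with sums from 960 to 1628 CPM in C and from 1782 to 2812 CPM in T+WSD, and smooth muscle and pericyte markers for 3 of 8, with sums from 753 to 1578 CPM and from 1383 to 1878 CPM. Adipocyte markers were called higher for 1 of 8, with sums from 1502 to 10540 CPM in C and from 10027 to 14397 CPM in T+WSD. T and B cell markers, with 0 of 5 called and 0 at an unadjusted p under 0.05, had sums from 2.15 to 8.86 CPM in C and from 1.98 to 7.28 CPM in T+WSD. Fibroblast and preadipocyte markers were called lower for 1 of 8, and macrophage markers for 0 of 6 in either direction, also with 0 at an unadjusted p under 0.05. No matched marker of these lists was at 0 in every library.

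When the mean of the mesothelial markers entered the edgeR fit as a covariate, the log2 fold change in T+WSD against C was 0.044 for EBF1 (SE 0.29) and -0.79 for CEBPD (SE 0.74), and neither was called (edgeR adjusted p = 0.9999 for both). The covariate itself differs between these groups, so its part and that of the treatment cannot be told apart. Without the 8 libraries with a high share of ENSMMUG00000038258, the log2 fold changes were 0.57 for EBF1 (edgeR adjusted p = 0.104) and -1.03 for CEBPD (edgeR adjusted p = 0.199). Within those 8 libraries, with 2 animals per group, they were 1.09 and -1.86 (edgeR adjusted p = 0.473 and 0.348). Both genes kept their direction within and without these libraries, and neither call held in either set. The share of all genes called was not counted with the covariate or in these sets. The loss of the calls therefore cannot be read as particular to these genes.

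**Figure D2:**
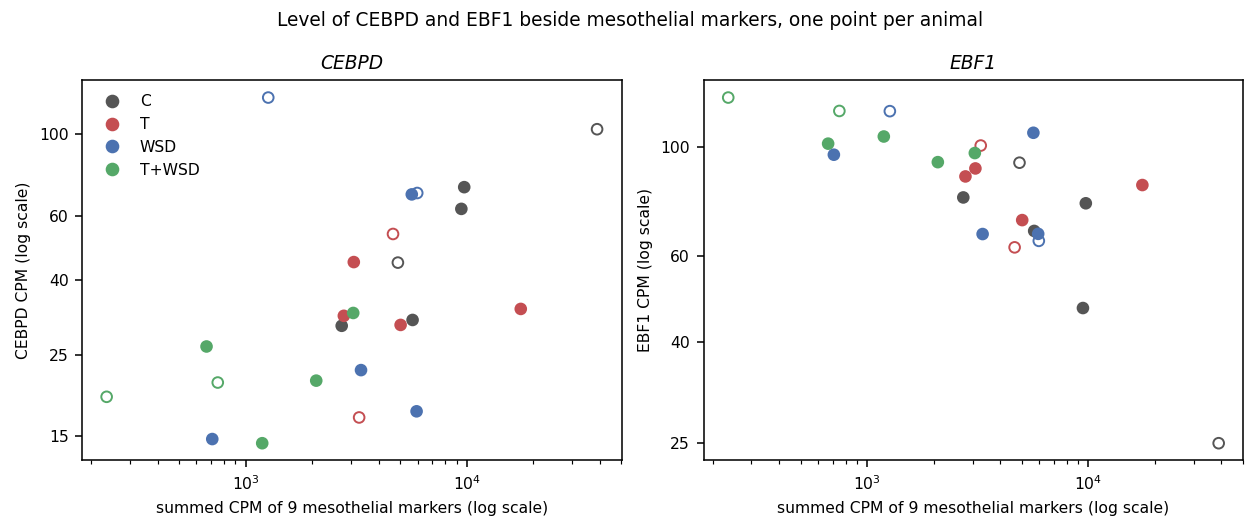
Level of CEBPD (left) and EBF1 (right) in CPM against the summed CPM of 9 mesothelial markers in the same library, one point per animal, all axes on a log scale. T+WSD animals lie between 235 and 3070 CPM of mesothelial markers, C 1 lies at the far right at 38893 CPM, and open points are the 8 libraries with a high share of ENSMMUG00000038258.

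PPARG, the nuclear receptor without which fat cells do not form, was not called in any comparison. Its level was 181 ± 74.4 CPM in C, 223 ± 45.5 CPM in T, 247 ± 88.8 CPM in WSD and 227 ± 37.1 CPM in T+WSD. The lowest, median and highest animals were at 52.6, 189 and 266 CPM in C and at 157, 236 and 263 CPM in T+WSD. These ranges overlap almost entirely, apart from C 1 at the low end. The log2 fold change in T+WSD against C was 0.32, with a 95% interval from -0.25 to 0.90 (edgeR adjusted p = 0.446), an interval that holds both no change and a fold change of the size required for a call. Without C 1 it was 0.15 (edgeR adjusted p = 0.716).

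RXRA, the DNA-binding partner of PPARG, was at 34.9 ± 7.70 CPM in C, 42.7 ± 6.03 CPM in T, 39.1 ± 3.78 CPM in WSD and 38.2 ± 5.99 CPM in T+WSD. In T against C it had an unadjusted p of 0.0377 in edgeR, a log2 fold change of 0.29 (SE 0.13) and an adjusted p of 0.568, and 4 of 6 T animals lay above every control. Its 95% intervals stayed within a 1.5-fold change in all pairwise comparisons.

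CEBPA, which works with PPARG to establish insulin sensitivity in the mature adipocyte, was at 66.7 ± 40.5 CPM in C, 91.4 ± 31.8 CPM in T, 75.5 ± 22.1 CPM in WSD and 83.5 ± 15.4 CPM in T+WSD. Its control animals ran from 20.2 to 140 CPM, a range that held every T+WSD animal. CEBPB, the C/EBP that starts the cascade together with CEBPD, was at 48.4 ± 24.8, 68.7 ± 12.5, 58.8 ± 40.7 and 58.1 ± 10.7 CPM in C, T, WSD and T+WSD. The log2 fold changes in T+WSD against C were 0.33 for CEBPA (SE 0.31) and 0.27 for CEBPB (SE 0.32), and neither passed the test (edgeR adjusted p = 0.494 and 0.609). Without C 1 they were 0.16 and 0.15. CEBPD was the one C/EBP of these 3 with a negative value in T+WSD against C, whereas with the mesothelial covariate CEBPA and CEBPB were below 0 as well (-0.39 and -0.51).

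**Figure D3:**
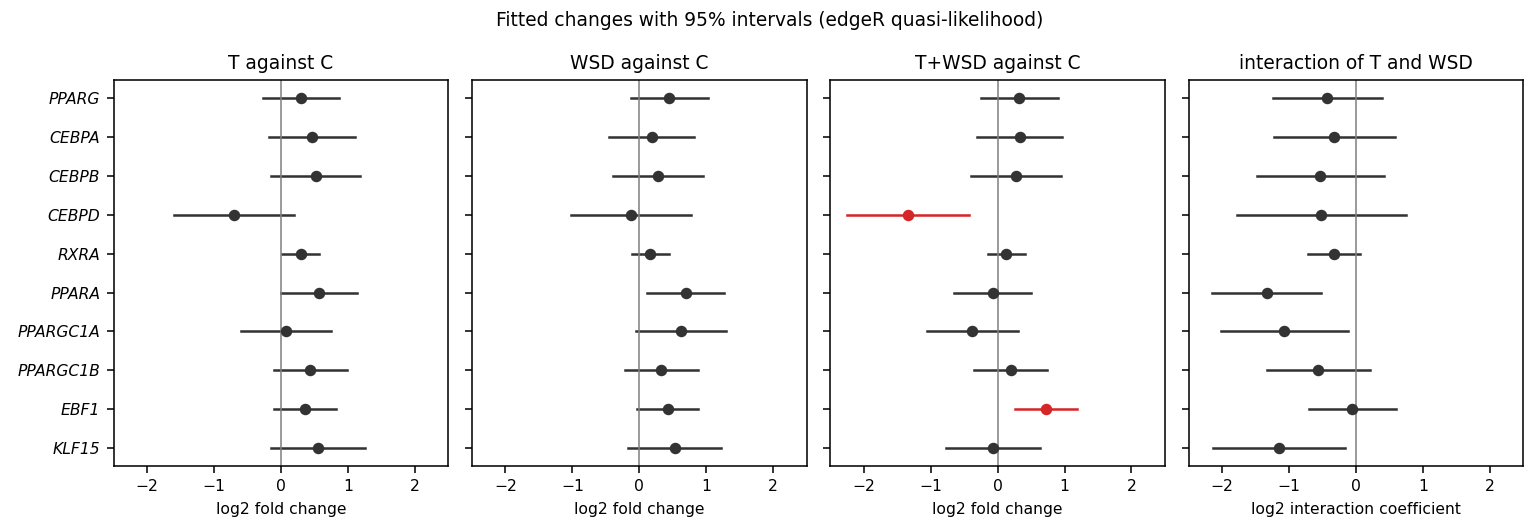
Log2 fold changes of the 10 regulators in T, WSD and T+WSD against C, and the log2 interaction coefficient, as points with 95% intervals from edgeR. Red marks the called genes, CEBPD at -1.34 and EBF1 at 0.72 in T+WSD against C, and all 10 interaction coefficients lie below 0, that of EBF1 above 0 (0.014) with upper-quartile normalization.

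PPARA, the receptor that turns on fatty acid oxidation, had its higher levels under the single treatments. The lowest, median and highest values were 43.4, 55.5 and 73.2 CPM in C, 61.1, 75.4 and 145 CPM in T, 48.5, 69.3 and 204 CPM in WSD, and 44.2, 53.2 and 66.4 CPM in T+WSD. In T+WSD, 5 of 6 animals lay below every T animal, while the T+WSD and C ranges overlapped. The highest T and WSD values belonged to T 14 and WSD 20. The log2 fold change was 0.57 in T against C (SE 0.28, edgeR adjusted p = 0.579), 0.69 in WSD against C (SE 0.28, edgeR adjusted p = 0.197) and -0.076 in T+WSD against C (SE 0.28, edgeR adjusted p = 0.890). Without T 14 the value in T against C was 0.34 (edgeR adjusted p = 0.806), and without WSD 20 that in WSD against C was 0.30 (edgeR adjusted p = 0.539).

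PPARGC1A, a coactivator of PPARA and PPARG that drives mitochondrial biogenesis and thermogenic genes, was at 21.05 ± 7.64 CPM in C, 22.2 ± 7.39 CPM in T, 32.6 ± 22.6 CPM in WSD and 16.3 ± 2.75 CPM in T+WSD. The lowest, median and highest WSD animals were at 18.8, 24.3 and 78.1 CPM, and those of T+WSD at 12.3, 17.2 and 19.2 CPM. Of the 6 T+WSD animals, 5 lay below every WSD animal, and the highest WSD value was again that of WSD 20. T+WSD against WSD gave a log2 fold change of -0.99 (SE 0.33, edgeR adjusted p = 0.0984), and without WSD 20 it was -0.54 (edgeR adjusted p = 0.294). Its relative PPARGC1B, which also coactivates nuclear receptors, was at 16.6 ± 6.64, 22.4 ± 7.50, 20.8 ± 8.78 and 19.1 ± 1.91 CPM in C, T, WSD and T+WSD, and its log2 fold change in T+WSD against C was 0.20 (SE 0.26, edgeR adjusted p = 0.654), or 0.082 without C 1.

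KLF15, a zinc finger factor that glucocorticoids induce and that promotes adipocyte differentiation, was at 31.4 ± 12.1 CPM in C, 45.8 ± 12.2 CPM in T, 45.4 ± 34.6 CPM in WSD and 29.7 ± 7.95 CPM in T+WSD. The WSD animals had a lowest value of 17.9, a median of 34.4 and a highest of 114 CPM, the last in WSD 20. The T animals ran from 33.2 to 67.9 CPM, and 4 of 6 T+WSD animals lay below all of them. T against C gave a log2 fold change of 0.55 (SE 0.34, edgeR adjusted p = 0.649) and T+WSD against T gave -0.62 (SE 0.34, edgeR adjusted p = 0.247).

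None of the 10 regulators was called in any other pairwise comparison. In edgeR, 0 of 15207 genes were called in WSD against C (0%) and in T against C (0%), 0.815% in T+WSD against WSD and 3.77% in T+WSD against T. DESeq2 called 0 regulators in each of these 4 comparisons, and its share of all genes was not counted. At an unadjusted p under 0.05, 1 regulator was named in WSD against C (PPARA, higher, 18.5% of all genes), 1 in T against C (RXRA, higher, 8.63%), 3 in T+WSD against WSD (CEBPD, PPARA and PPARGC1A, lower, 20%) and 1 in T+WSD against T (PPARA, lower, 25.9%). These counts were near or below the share of all genes with such a p, and with 10 regulators this includes the 3 in T+WSD against WSD.

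The interaction term asks whether testosterone acts differently under the diet than under chow, and a gene was called at an adjusted p under 0.1. By edgeR, 0 of 10 regulators and 0.809% of all genes were called. DESeq2 called 1 regulator, PPARA (log2 interaction coefficient -1.31, DESeq2 adjusted p = 0.0611). The share of all genes called by DESeq2 was not counted, so its 1 call cannot be set against the edgeR share. In edgeR the coefficient of PPARA was -1.33 (SE 0.39, unadjusted p = 0.00243, adjusted p = 0.143). KLF15 followed at -1.15 (SE 0.48, edgeR adjusted p = 0.288) and PPARGC1A at -1.07 (SE 0.46, edgeR adjusted p = 0.305), and these 3 genes had an unadjusted p under 0.05, as did 13.5% of all genes. The coefficient was below 0 for 10 of 10 regulators and for 52.2% of all genes, and with upper-quartile normalization that of EBF1 was above 0 (0.014). The regulators vary together between animals, so these are not 10 independent signs. In the lists described below, 18 of 23 other activators, 10 of 19 inhibitors and 25 of 30 targets were also below 0. The median coefficient was -0.52 over the 10 regulators and -0.016 over all tested genes.

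Individual animals carried part of this pattern. WSD 20 was the highest of the 6 WSD animals for 10 of 10 regulators and the highest of all 24 for 7, and C 1 was the lowest of all 24 for 7. Without WSD 20 the interaction coefficient was -0.94 for PPARA, -0.65 for KLF15 and -0.61 for PPARGC1A, none called (edgeR adjusted p = 0.220, 0.541 and 0.557), whereas without WSD 21 that of PPARA was -1.47 and called (edgeR adjusted p = 0.0588). With both C 1 and WSD 20 left out, a choice made after their values were seen, 7 of 10 coefficients were below 0 and 3 were above 0. Both animals are among the 8 libraries with a high share of ENSMMUG00000038258, and without these 8 the coefficient was -1.01 for PPARA, -0.22 for PPARGC1A and -0.63 for KLF15.

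**Figure D4:**
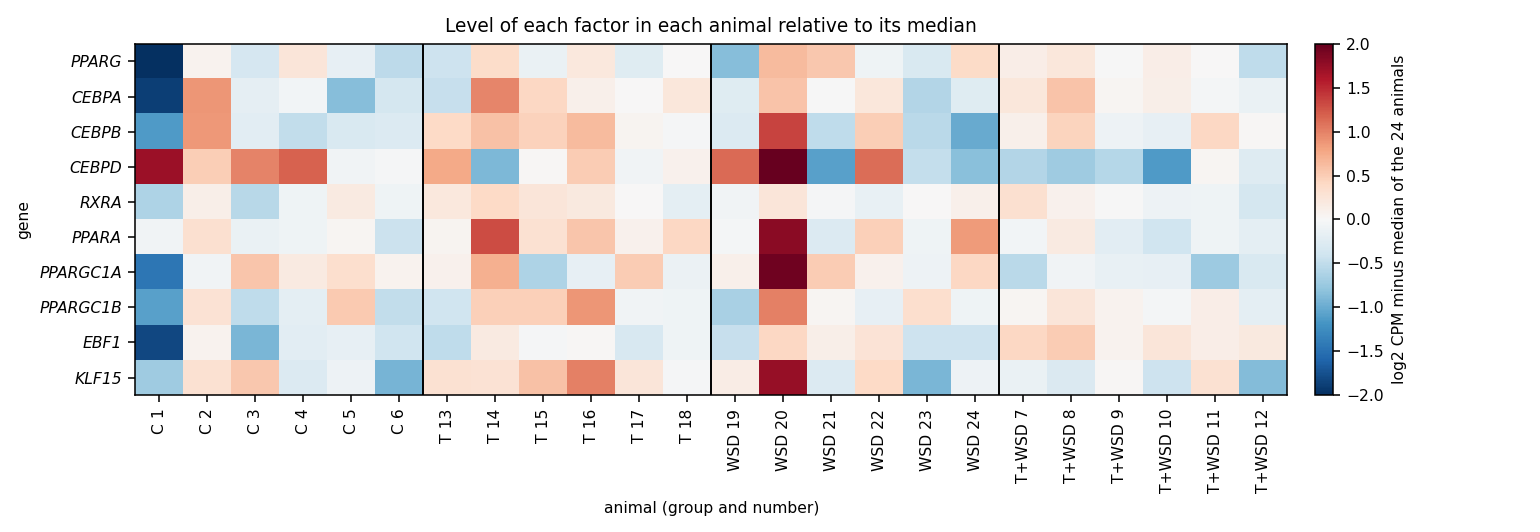
Level of each regulator in each of the 24 animals as log2 CPM minus the median of the 24, with lines between the groups C, T, WSD and T+WSD. The column of C 1 is low for all but CEBPD and PPARA, the column of WSD 20 is the highest of the WSD columns in every row, and the T+WSD columns are the most even.

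The T+WSD animals were the most alike. The coefficient of variation (SD over mean) was smallest in T+WSD for 7 of 10 regulators, compared with 50.5% of all tested genes, and it was smallest in T for CEBPB and KLF15 and in WSD for RXRA. Its median over the 10 regulators was 39.2% for the controls, 29.9% for T, 53.1% for WSD and 16.6% for T+WSD. Over all tested genes the corresponding medians were 23.5%, 20.4%, 23.3% and 15.7%.

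Most pairs of regulators varied together between animals. After the group means were removed, 39 of 45 pairs had a positive Pearson correlation of log2 CPM over the 24 animals, with a median of 0.49, and all 6 negative pairs included CEBPD. EBF1 was closest to PPARG (r = 0.82) and CEBPA (r = 0.82), and the lowest value was that of PPARG and CEBPD (r = -0.34). Without C 1 and WSD 20, over 22 animals, the median was 0.25 and 32 pairs were positive, and of the 13 negative pairs 7 included CEBPD, while 5 of the other 6 included PPARGC1A. These values describe the same libraries, which share depth and tissue makeup within each animal. Pairs of other genes were not examined in this way, so the pattern cannot be called particular to the regulators.

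For PPARG, CEBPA, CEBPD and EBF1, the genes with the most similar pattern over the 24 animals are given as a description. Only tested genes with a symbol were searched, and the group means were not removed. The nearest to PPARG were AKT2 (r = 0.92), PLIN1 (r = 0.91) and LRP3 (r = 0.90). For CEBPA they were RDH8 (r = 0.88), PJA1 (r = 0.88) and HADHB (r = 0.86). The genes nearest to CEBPD were FOSL2 (r = 0.94), MYC (r = 0.94) and ARID5B (r = 0.91), and those nearest to EBF1 were GNG2 (r = 0.94), ARHGAP24 (r = 0.93) and FRMD4A (r = 0.93).

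Other genes of the adipogenic network were counted in T+WSD against C from lists taken from general knowledge. Of 29 other activators and nuclear receptor partners, 23 were tested, 2 were called higher and 0 lower, with a median log2 fold change of 0.12 against -0.042 over all tested genes. Of all tested genes 10% were called, 4.72% higher and 5.29% lower. The 2 called were NR1H3, the oxysterol receptor LXR alpha (0.78, SE 0.25, from 28.0 ± 13.2 CPM in C to 47.9 ± 6.97 CPM in T+WSD, edgeR adjusted p = 0.0324), and the repressor BCL6 (0.70, SE 0.20, edgeR adjusted p = 0.0221). SREBF1, which drives fatty acid synthesis genes, was not called (0.40, SE 0.39, edgeR adjusted p = 0.521).

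Of 26 inhibitors of adipogenesis and corepressors, 19 were tested, 2 were called higher and 1 lower, with a median log2 fold change of 0.086. The share over all tested genes was 10%. TCF7L2, the DNA-binding partner of beta-catenin in Wnt signalling, rose by 0.83 (SE 0.14, edgeR adjusted p = 0.00294), from 6.897 ± 1.099 CPM in C to 12.3 ± 2.38 CPM in T+WSD. It was also called higher in T+WSD against WSD (0.60, edgeR adjusted p = 0.0367) and against T (0.59, edgeR adjusted p = 0.0194). NR2F2, the orphan receptor COUP-TFII, rose by 0.63 (SE 0.19, edgeR adjusted p = 0.0253), and ID2, which blocks helix-loop-helix factors, fell by 1.21 on the log2 scale (SE 0.30, edgeR adjusted p = 0.0118). ID2 was at 88.9 ± 43.4 CPM in C and 38.4 ± 3.15 CPM in T+WSD. Whether ID2 or the other genes of this list act as inhibitors in this tissue was not tested, so its fall cannot be read as the loss of an inhibitor.

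Of 36 genes listed as targets of PPARG and the C/EBPs in adipocytes, 30 were tested, 3 were called higher and 0 lower in T+WSD against C. The median log2 fold change of the 30 was 0.15. The list also holds TFAM, NRF1 and ESRRA, and whether its genes are direct targets in this tissue was not tested. The share called over all tested genes was again 10%. The 3 called were LEP, which encodes the satiety hormone leptin (2.20, SE 0.74, edgeR adjusted p = 0.0442), the complement factor gene CFD (0.99, SE 0.26, edgeR adjusted p = 0.0132) and the fatty acid carrier gene FABP4 (0.82, SE 0.28, edgeR adjusted p = 0.0429). LEP was at 272 ± 229 CPM in C and 1255 ± 360 CPM in T+WSD. ADIPOQ, which encodes adiponectin, had a log2 fold change of 0.50 (SE 0.32, edgeR adjusted p = 0.282), and PLIN1, a coat protein of lipid droplets, of 0.54 (SE 0.30, edgeR adjusted p = 0.224). With the mesothelial covariate, 0 genes of each of the 3 lists were called in T+WSD against C by edgeR, and likewise 0 without the 8 libraries with a high share of ENSMMUG00000038258. The share of all genes called in these settings was not counted, so the loss of calls cannot be read as particular to the lists. The endothelial, mural and adipocyte marker sums given above also differ between the same animals, all 8 adipocyte markers are in the target list, and the part of these sums in the changes was not tested. When each animal was left out in turn, the number called ranged from 0 to 3 for the activators, from 2 to 5 for the inhibitors and from 1 to 5 for the targets.

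In the single-treatment comparisons, 0 of the 30 targets were called by edgeR, as were 0 of all 15207 genes. The median log2 fold change of the targets was 0.54 in WSD against C (4 of 30 at an unadjusted p under 0.05) and 0.31 in T against C (6 of 30), beside -0.016 and -0.017 over all tested genes. Of all tested genes, 18.5% had such a p in WSD against C and 8.63% in T against C. The median interaction coefficient of the targets was -0.48, with 25 of 30 below 0 beside 52.2% of all genes, and 1 was called beside 0.809% of all genes. That gene was IRS1, an adaptor of the insulin receptor, with a coefficient of -1.24 (SE 0.28, edgeR adjusted p = 0.0564). IRS1 was also called lower in T+WSD against T (-0.86, SE 0.20, edgeR adjusted p = 0.0178), and IRF4, a repressor in the inhibitor list, was called lower in that comparison too (-3.06, SE 0.88, edgeR adjusted p = 0.0423). Both IRS1 and IRF4 were picked out after their values were seen.

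**Figure D5:**
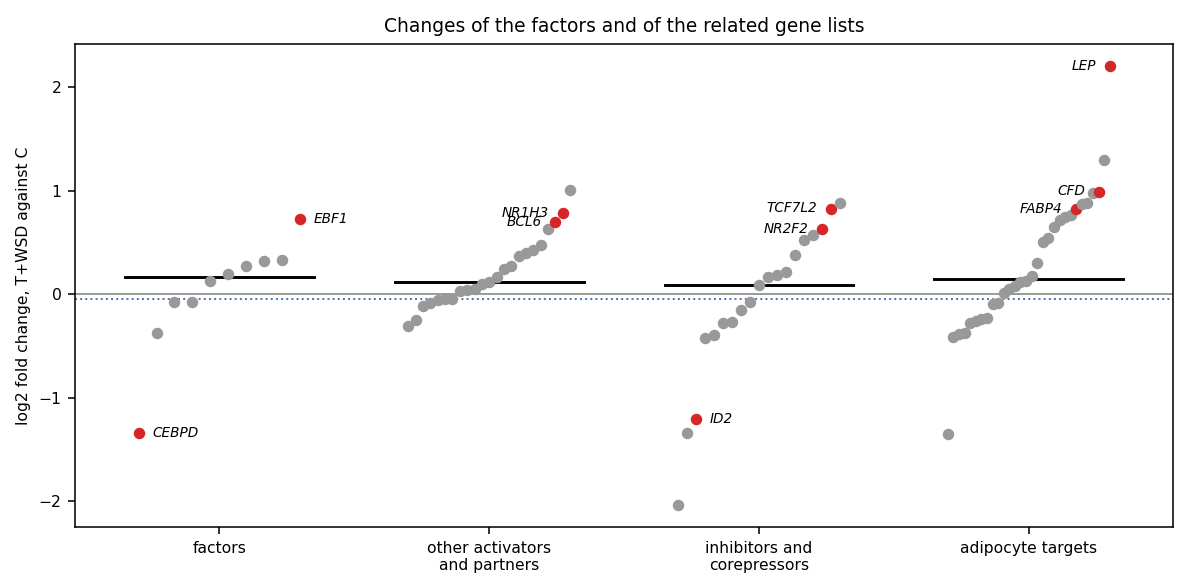
Log2 fold change in T+WSD against C of the 10 regulators and of the tested genes of the 3 lists, one point per gene. Red points are called genes, black bars are the medians of each list, from 0.086 to 0.17, and the dotted line is the median over all tested genes, -0.042.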

How the data were processed

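Per the labels and the study's methods, RNA with a high integrity number was depleted of ribosomal RNA and read as single ends. The submitters' processing notes name FastQC 0.11.5, Trimmomatic 0.36, STAR 2.5.2b and DESeq2 1.18.1, and the reads were aligned to rheMac8. The authors deposited raw counts per gene in 1 table, without normalization. The counting tool and its strand setting are not given in the sources used here, so overlapping and antisense genes carry that uncertainty. Total counts per library ran from 6899185 to 28270776, and 7255 of 32386 genes were at 0 in every library. No 2 libraries of a group were identical among 60 pairs.

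The counts were TMM-normalized and tested in R 4.3.3 with edgeR 4.0.16 (glmQLFit with robust=TRUE and legacy=TRUE, glmQLFTest, two-sided) in 1 fit to the 4 groups, taken from the labels. The filter filterByExpr (at least 10 counts, 15 in total) left 15207 genes, and p was adjusted by Benjamini-Hochberg over all of them. The test was checked on simulated data. A call took a fold change over 1.5 with an adjusted p under 0.05, or for the interaction an adjusted p under 0.1. Log2 CPM used a prior count of 2. DESeq2 1.42.0 was an alternative. Symbols came from the gene name table, else the supplementary tables, and 22 symbols of the lists and markers were unmatched. Named were the 10 regulators, up to 3 called genes per list and direction, 6 further list genes and the 3 genes most like each of PPARG, CEBPA, CEBPD and EBF1. The regulators and lists were chosen with earlier results of these data known. The bisulfite sequencing was not analysed here.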

Additional observations from a re-analysis of the deposited data

Results flagged for a closer look

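In 6 of the 40 sets of 6 animals (10 regulators in 4 groups), 1 animal stood apart from its group. Its gap to the nearest animal took a larger part of the group's whole range than Dixon's 95% critical value allows. For independent sets of normally distributed values, chance gives about 1 in 20 such sets, or 2 of 40. The sets here share animals between genes and hold CPM on a linear scale, so 6 cannot be weighed against 2. WSD 20 accounted for 3 of the 6 sets. PPARA was at 204 CPM in WSD 20, with the nearest WSD animal at 105 CPM. PPARGC1A was at 78.1 CPM in that animal, with the nearest at 28.8 CPM, and KLF15 at 114 CPM, with the nearest at 44.5 CPM. PPARA was also at 145 CPM in T 14, with the nearest T animal at 85.8 CPM. CEBPB was at 96.4 CPM in C 2, with the nearest control at 45.8 CPM. The remaining one was the low PPARG value of T+WSD 12, 157 CPM, with the nearest T+WSD animal at 223 CPM. This gap took 0.626 of the range and that of PPARA in WSD 20 took 0.635, both only just over the critical value. For PPARGC1A in WSD 20 the gap took 0.831. WSD 20, T 14 and C 2 are among the 8 libraries with a high share of ENSMMUG00000038258.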

How the results depend on the processing

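No paired analysis was possible because the groups share no replicate numbers. Summing several identifiers per symbol was not run, since each regulator has 1. No called regulator changed sign in any alternative, and no alternative moved the median log2 fold change of all genes by over 0.1. Of 2270 values of single regulators under an alternative, 2163 kept both sign and side of the threshold. The settings within the 8 libraries with a high share of ENSMMUG00000038258, and with C 1 and WSD 20 both left out, were chosen after seeing the data. The causes of the changes below were not tested.

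In T+WSD against C, 2 regulators were called. The number was 1 with no filter on low counts (EBF1), with only the groups compared (CEBPD) and with a fold change over 2 (CEBPD), and 0 with the mesothelial covariate, without the 8 libraries, within them, and with C 1 and WSD 20 both left out. With each animal left out it ranged from 0 (C 1, C 3, T+WSD 7 or T+WSD 8) to 2. CEBPD had an adjusted p of 0.0636 with no filter and 0.0766 with C 1 and WSD 20 left out, and EBF1 one of 0.0631 with only the groups compared. In the interaction and in T+WSD against WSD, 0 were called, and without each animal from 0 to 1 (without WSD 21, PPARA and CEBPD), while DESeq2 called 1 in the interaction. The activator list, with 2 called, gave 1 with only the groups compared, 0 with the covariate, without or within the 8 libraries and at a fold change over 2, 5 with no fold-change threshold, and from 0 (without C 1) to 3 without each animal. The inhibitor list, with 3, gave 0 with the covariate, without and within the 8, 1 at a fold change over 2, and from 2 to 5 (without C 5). The target list, with 3, gave 6 with DESeq2, 1 with no filter and at a fold change over 2, 0 with the covariate, without and within the 8, and from 1 (without C 3, C 5 or any of T+WSD 7 to 11) to 5 (without C 2). For DESeq2 the share of all genes called was not counted beside these numbers.

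Sign changes concerned uncalled log2 values only. With the mesothelial covariate, T+WSD against C was -0.24 for PPARG, -0.39 for CEBPA, -0.51 for CEBPB, -0.10 for RXRA and -0.45 for PPARGC1B. WSD against C was then -0.091 for CEBPA, -0.048 for CEBPB and 0.15 for CEBPD, T against C -0.023 for PPARGC1A, T+WSD against WSD -0.30 for CEBPA and -0.10 for EBF1, and T+WSD against T -0.45 for PPARG and -0.21 for EBF1. Without the 8 libraries, RXRA was -0.00083 in T+WSD against C, KLF15 -0.043 and PPARGC1A -0.047 in WSD against C, PPARGC1A -0.33 in T against C, CEBPB 0.35 in T+WSD against WSD, PPARG -0.034 in T+WSD against T, and CEBPD 0.097 in the interaction. Within the 8, PPARGC1A was 0.36 in T+WSD against C, CEBPD 0.39 in WSD against C, PPARG 0.13 and RXRA 0.14 in T+WSD against WSD, and PPARGC1B 0.048 in T+WSD against T. With C 1 and WSD 20 both left out, WSD against C was -0.15 for CEBPA, -0.28 for CEBPB, -0.074 for KLF15, -0.011 for PPARGC1A and -0.034 for PPARGC1B, T against C -0.10 for PPARGC1A, T+WSD against WSD 0.42 for CEBPB, 0.0078 for PPARG, 0.12 for PPARGC1B and 0.024 for RXRA, and the interaction 0.029 for CEBPA, 0.043 for CEBPB and 0.23 for EBF1. CEBPB in T+WSD against WSD was 0.0016 with DESeq2, 0.0046 with RLE and 0.053 with upper-quartile normalization. It was 0.019 with at least 10 counts in every animal and 0.0081 with only the groups compared. With a yes-or-no covariate that marks the 8 libraries with a high share of ENSMMUG00000038258, it was 0.053. Upper-quartile normalization gave 0.024 for RXRA in T+WSD against WSD and 0.014 for EBF1 in the interaction, and no filter gave -0.0067 for PPARG in T+WSD against T.

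With each animal left out in turn, values that crossed 0 ranged, in T+WSD against C, from -0.20 to 0.10 for KLF15 and from -0.14 to 0.033 for PPARA, in WSD against C from -0.0036 to 0.54 for CEBPA, from -0.14 to 0.60 for CEBPB and from -0.58 to 0.13 for CEBPD, in T against C from -0.10 to 0.20 for PPARGC1A, in T+WSD against WSD from -0.17 to 0.41 for CEBPB, from -0.24 to 0.10 for PPARGC1B and from -0.11 to 0.026 for RXRA, in T+WSD against T from -0.25 to 0.053 for CEBPA and from -0.047 to 0.11 for PPARG, and in the interaction from -0.17 to 0.13 for EBF1.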

Other observations

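UCP1, the uncoupling protein of thermogenic fat and a known target of PPARA and PPARGC1A, was examined after its values were seen. It was highest in WSD 20 at 45.0 CPM, T 14 at 39.5 CPM and C 2 at 11.49 CPM, all among the 8 libraries with a high share of ENSMMUG00000038258. No T+WSD animal exceeded 4.08 CPM, and most C and T animals were below that level as well. The group medians were 0.33 CPM in C, 1.61 CPM in T, 2.77 CPM in WSD and 0.94 CPM in T+WSD. Its interaction coefficient was -4.92 on the log2 scale (SE 2.10, edgeR adjusted p = 0.302), which was not called.

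Immediate early genes, which cells induce within minutes of a stimulus or of handling, were also summed after the data were seen, from 5 matched of 9 (FOS, FOSB, JUNB, ATF3 and ZFP36). Their summed level ran from 78.6 to 133 CPM in C, from 51.6 to 229 CPM in T, from 43.0 to 314 CPM in WSD and from 62.4 to 93.4 CPM in T+WSD. The highest value was that of WSD 20, which also had the highest level of CEBPD, 126 CPM. WSD 20 was also the highest of all animals for 7 regulators, so the match is not particular to CEBPD. In C, T and T+WSD the animal with the highest sum did not have the highest CEBPD. C 5, highest in C for the sum, was the lowest control for CEBPD at 30.02 CPM. T 16, highest in T for the sum, had CEBPD at 44.8 CPM, below T 13 at 53.4 CPM. At the low end, T 14, WSD 21 and T+WSD 10 had the lowest sums of their groups. They also had the lowest CEBPD of their groups, at 16.9, 14.7 and 14.4 CPM. C 6 had the lowest sum in C, and its CEBPD, 31.1 CPM, was just above that of C 5. In T and WSD the animals had nearly the same order by the sum as by CEBPD. In C and T+WSD the orders differed more. Whether CEBPD follows this sum was not tested.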
